A study of Homo sapiens with 8 samples.

Results

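The response of protein-coding transcripts to VHL re-expression was examined in UM-RC-2, an established line of clear cell renal cell carcinoma whose own VHL gene is mutated per the labels. Genes were kept when their symbol is protein-coding and when each of the 4 RNA libraries held 50 or more counts, which left 9989 of the 43682 symbols in the count tables and of 19253 protein-coding symbols. The groups were UM-RC-2 cells infected with a lentivirus carrying VHL and cells infected with one carrying a construct that the labels call VEC, with 2 libraries each. Both groups shared the VHL-mutant background, selection in 10 µg/ml blasticidin and culture in DMEM with 10% serum. The labels do not say whether a group was a pool or a clone, and they do not say whether the replicates were separate cultures, so p-values measure only the spread between these libraries, which may be technical. All results come from a single cell line, and RNA of 786-O, the other line of the series, was not analysed here. VHL replicate 1 was paired with VEC replicate 1 and VHL replicate 2 with VEC replicate 2.

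VHL is the substrate-recognising subunit of a ubiquitin ligase built on elongin B, elongin C and cullin 2. In oxygenated cells it binds hydroxylated alpha subunits of the hypoxia-inducible factors and marks them for degradation, and its loss is the founding event of most clear cell renal carcinomas. The best-known consequences of its return concern hypoxia targets and nutrient transporters. These were counted once and set aside, and the functions of the remaining genes are described below.

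The libraries held 21306867 (VEC replicate 1), 16230291 (VHL replicate 1), 50027348 (VEC replicate 2) and 46609709 (VHL replicate 2) counts. Both replicate 1 libraries are labelled total RNA and both replicate 2 libraries polyA RNA. The examined genes took 94.7% to 95.1% of the counts in replicate 1 and 59.4% to 65.2% in replicate 2, where pseudogenes took 24.9% to 31.3%, against 1.37% to 2.07% in replicate 1. Over the examined genes, log2 levels correlated at 0.973 to 0.974 between the libraries of one number and at 0.772 to 0.78 between the libraries of one group. RNA type, depth and replicate number cannot be told apart, but all of them run across both groups, and each comparison below is within replicate number. Depth and composition also differed within pairs, and the VHL library held fewer counts in both. Pseudogenes took 1.37% in VEC and 2.07% in VHL in replicate 1. In replicate 2 they took 31.3% in VEC and 24.9% in VHL. Whether this had a part in any change was not tested. All 16 renal markers had counts, with EPCAM at 0 to 2 counts per library, and their summed level, relative to the total counts of a library, was 5480 CPM and 2410 CPM in the VEC libraries and 3550 CPM and 1540 CPM in the VHL libraries of replicates 1 and 2. All 6 endothelial markers were under 1 CPM in every library, and 4 of them were at 0 throughout. The 8 haematopoietic markers summed to 13.6 to 19.2 CPM in replicate 1 and 72.3 to 79.9 CPM in replicate 2, mostly CD68 and LYZ, and the 8 fibroblast and pericyte markers to 7.04 to 10.3 CPM. Whether other cells or RNA took part in any difference between replicate numbers was not tested.

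VHL itself was higher in both VHL libraries. It stood at 37.1 CPM (counts scaled to library size with edgeR's TMM factors, here and below) in VEC replicate 1, 146 in VHL replicate 1, 88.9 in VEC replicate 2 and 151 in VHL replicate 2. The VHL libraries lay above both VEC libraries. The log2 change was 1.98 in pair 1 and 0.77 in pair 2, and 1.36 ± 0.23 (SE, n = 2 pairs) in the fit over both pairs, with an adjusted p of 4.63e-07 (edgeR's quasi-likelihood test with the replicate number as a block). The counts do not separate the introduced transcript from the endogenous mutant one.

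Of the 9989 genes, 406 (4.06%) changed at an adjusted p under 0.05, against 756 of 24417 (3.1%) among all genes tested. More genes fell than rose. There were 283 genes lower in VHL cells (2.83%) and 123 higher (1.23%), where the shares among all genes tested were 2.35% and 0.749%. All 406 had the same sign in both pairs, which a call in this fit nearly requires, so it is no separate support. Of all 9989 genes, 6355 (63.6%) had the same sign, 3275 of them higher (32.8% of the 9989) and 3080 lower (30.8%). At least 1 log2 unit in the same direction in both pairs was reached by 123 genes (1.23%), 105 lower and 18 higher, and 1 gene moved that far in opposite directions. The median log2 change of all examined genes was −0.04 in pair 1 and 0.07 in pair 2. Without the replicate block, edgeR called 0 of the 9989 genes, and 16 had an unadjusted p under 0.05, so every call in this text rests on pairing by replicate number. DESeq2's Wald test, which made 1074 calls, divided them as 463 higher and 611 lower, a more even division than edgeR's 123 and 283. The plot of the change in one pair against the change in the other shows both tails.

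**Figure D1:**
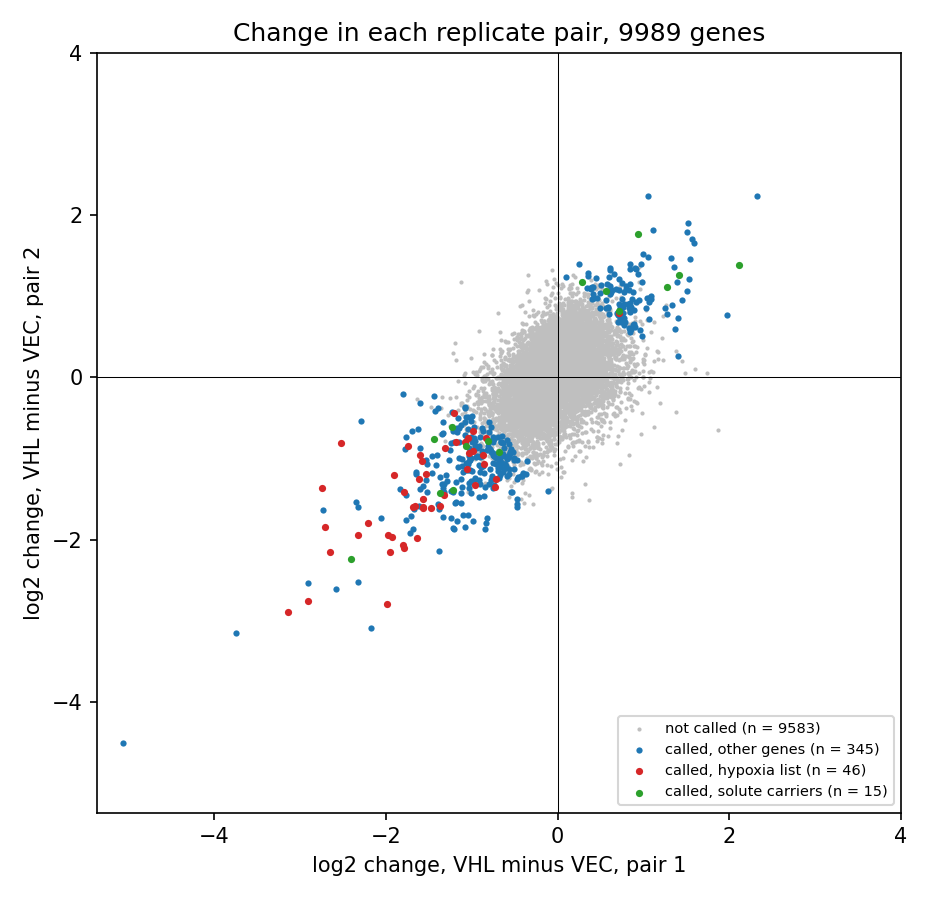
Log2 change (VHL minus VEC) of 9989 protein-coding genes in replicate pair 1 (x axis) against pair 2 (y axis); grey points were not called, and blue, red and green points were called at an adjusted p under 0.05. The 406 called genes lie in the lower left and upper right corners, 283 lower and 123 higher, with DNAH11 at the far lower left and FN1 at the far upper right.

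Of 62 hypoxia targets 45 fell and 1 rose, and of 200 solute carriers 8 fell and 7 rose. The other 9727 genes held 345 calls, 230 lower and 115 higher. The hypoxia targets were known to fall from earlier results on these libraries, and their count is given only to show what was removed. The smallest log2 change called was 0.675 in size, and the median SE over the examined genes was 0.231. List counts below stand beside 4.06% called among all examined genes. For genes higher or lower in both pairs, the shares of all examined genes were 32.8% and 30.8%.

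Outside those groups, the deepest falls were in genes of varied function. DNAH11 encodes a heavy chain of ciliary dynein. It had 187 CPM in VEC replicate 1 and 5.52 in VHL replicate 1, and 41.55 in VEC replicate 2 and 1.76 in VHL replicate 2. The log2 change was −4.83 ± 0.26 (adjusted p = 1.06e-72, edgeR), 28.5-fold lower. Both VHL libraries were far below both VEC libraries. The primary cilium and intraflagellar transport list does not include DNAH11. Of its 47 examined genes, 24 were lower and 9 higher in both pairs (30.8% and 32.8% among all examined genes). Of these 47, edgeR called 0, with 6 at an unadjusted p under 0.05, and DESeq2's Wald test called 4 lower. DNAH11 overlaps CDCA7L on chromosome 7 in RefSeq, and CDCA7L, with a log2 change of −0.45 ± 0.21, did not pass (adjusted p = 0.328).

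KSR1, a scaffold that holds RAF, MEK and ERK together, stood at 311 and 137 CPM in VEC replicates 1 and 2 and at 23.2 and 15.35 CPM in VHL replicates 1 and 2. That is a fall by 3.45 ± 0.25 on the log2 scale, or 11-fold (adjusted p = 4.38e-41). The lowest VEC library was several times above the highest VHL library. SMPDL3A, a phosphodiesterase related to acid sphingomyelinase, fell from 92.1 to 12.2 CPM in pair 1 and from 52.4 to 8.96 in pair 2 (log2 change −2.73 ± 0.23, adjusted p = 1.24e-28). C1QL1, a secreted C1q-domain protein known from synapses, fell from 61.2 to 13.45 CPM in pair 1 and from 33 to 3.82 in pair 2 (log2 change −2.64 ± 0.25, adjusted p = 2.64e-23). DOC2A, a calcium sensor of vesicle fusion, fell by 2.63 ± 0.33 on the log2 scale (adjusted p = 1.52e-12), and its change was nearly the same in both pairs, −2.58 and −2.61. TMEM141 and TMEM139, membrane proteins of little-known function, fell by 2.44 ± 0.28 and 1.91 ± 0.28. RNASET2, a lysosomal ribonuclease, stood at 170 and 68 CPM in VEC replicates 1 and 2 and at 51.6 and 17.9 in VHL (log2 change −1.82 ± 0.22, adjusted p = 1.58e-13). FUT11, a fucosyltransferase gene whose current symbol is POFUT4, stood at 74.4 and 43.2 CPM in VEC and at 23.1 and 11.75 in VHL (log2 change −1.78 ± 0.22, adjusted p = 1.26e-12). In all of these both VEC libraries lay above both VHL libraries, except for TMEM141, where VEC replicate 2 (8.31 CPM) lay below VHL replicate 1 (10.1 CPM).

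The promoters of FUT11 and RNASET2 are shown because both genes were among the 15 largest falls outside the hypoxia list and both hold ACGTG, the core of the classical hypoxia response element. The sequences are the 250 bases before the RefSeq start on GRCh38.p14, 5′ to 3′ on the strand of the gene, with ACGTG on either strand in capitals. FUT11 lies on the plus strand at chr10:73772026-73772275 and its match is the palindrome CACGTG. RNASET2 lies on the minus strand at chr6:166956551-166956800.
FUT11: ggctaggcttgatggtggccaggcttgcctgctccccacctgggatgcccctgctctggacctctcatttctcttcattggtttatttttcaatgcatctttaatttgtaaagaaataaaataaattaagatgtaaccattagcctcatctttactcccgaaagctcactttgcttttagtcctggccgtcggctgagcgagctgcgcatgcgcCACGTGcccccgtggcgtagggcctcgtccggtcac
RNASET2: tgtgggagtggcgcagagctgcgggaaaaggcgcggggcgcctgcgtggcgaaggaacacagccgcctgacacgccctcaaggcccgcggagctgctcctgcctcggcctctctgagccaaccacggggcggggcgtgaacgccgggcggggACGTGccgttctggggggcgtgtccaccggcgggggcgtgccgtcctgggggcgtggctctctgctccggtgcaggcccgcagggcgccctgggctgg

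For the counts, a longer window than the printed one, 250 bases before to 50 after the start, was searched on both strands for ACGTG and GCGTG. A RefSeq promoter was matched for 8389 of the 9989 genes. ACGTG was in 56 of 180 promoters of genes called lower outside the set-aside groups (31.1%), 21 of 96 of those called higher (21.9%), 27.9% of all examined genes and 21.6% of all promoters in the table. Among hypoxia targets called lower it was in 17 of 38 (44.7%). GCGTG was in 46.1% of the promoters of the lower genes and 50% of those of the higher genes, against 52.7% of all examined genes. CACGTG, which contains ACGTG on both strands, was in 11.1% and 11.5%, against 10.7%. Among the 15 largest falls, 11 had a promoter in the table and 5 held ACGTG (BCKDHA, COL4A3, FUT11, RNASET2 and TMEM141). Among the 15 largest rises, 3 of 11 did (BCAT1, CPE and DPYSL3). The match of BCAT1 did not lie wholly within the 250 bases before the start. A match of these letters is a description and not a binding site.

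The largest rise was that of FN1, fibronectin, a matrix glycoprotein whose assembly outside the cell is known to depend on VHL. FN1 stood at 153 and 108 CPM in VEC replicates 1 and 2 and at 765 and 510 in VHL. Both VHL libraries were above both VEC libraries, and the log2 change was 2.28 ± 0.26 (adjusted p = 5.53e-15), 4.85-fold. The other large rises again had varied functions. GPAT3, which acylates glycerol-3-phosphate in triacylglycerol synthesis, rose from 51.1 to 151 CPM in pair 1 and from 19.8 to 65.2 in pair 2 (log2 change 1.64 ± 0.22, adjusted p = 3.45e-11). HLF, a PAR bZIP transcription factor, rose from 18.4 to 53.4 CPM and from 15.4 to 42.4 (1.5 ± 0.23, adjusted p = 1.2e-08). ATP2B4, a plasma membrane calcium pump, rose from 17.4 to 43.7 CPM and from 16.5 to 45.7 (1.40 ± 0.23, adjusted p = 2.16e-07). The tetraspanin-like neighbours TM4SF18 and TM4SF1 rose by 1.73 ± 0.29 and 1.47 ± 0.33, and HEG1, a membrane protein of cell junctions, by 1.28 ± 0.23. DPYSL3, a cytoskeletal phosphoprotein of the dihydropyrimidinase family, rose by 1.63 ± 0.30, LRCH2 by 1.69 ± 0.31 and the carboxypeptidase CPE, which trims peptide hormones, by 1.37 ± 0.34. LRCH2 changed unevenly, by 1.06 in pair 1 and 2.23 in pair 2. IFI44L, an interferon-stimulated gene, rose by 1.68 ± 0.35. The plot of levels by library shows genes chosen by hand, HIF1A among them. It leaves out some of the largest changes, such as those of DOC2A, TMEM141 and TM4SF18.

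**Figure D2:**
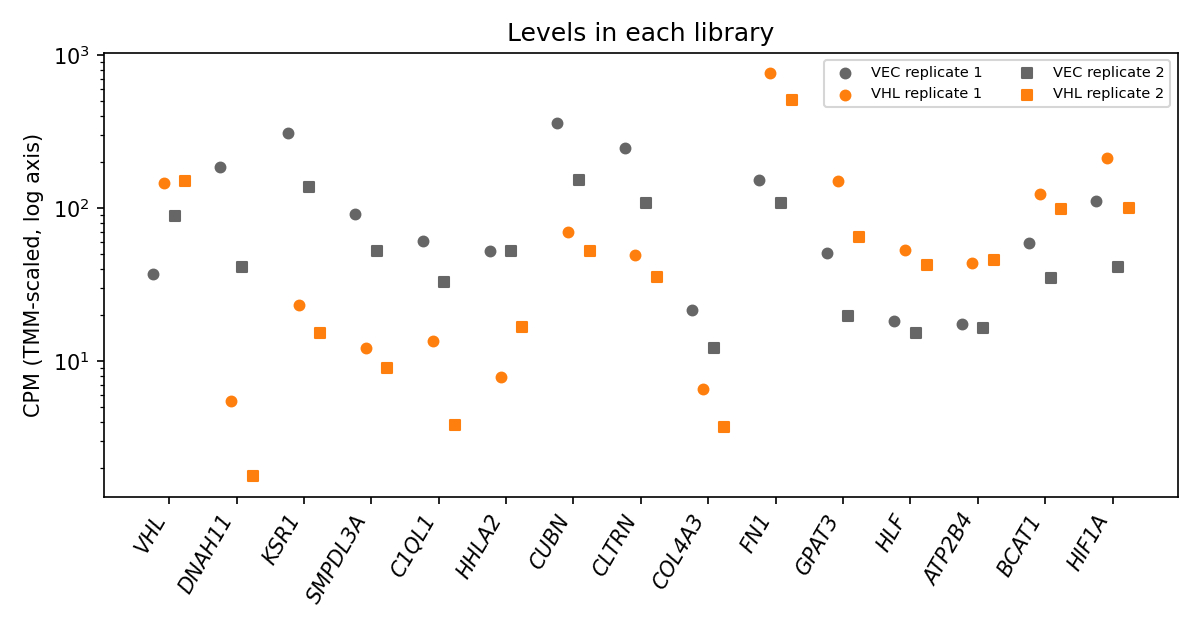
Level of 15 genes in each of the 4 libraries, in TMM-scaled CPM on a log axis; grey is VEC, orange is VHL, circles are replicate 1 and squares replicate 2. DNAH11, KSR1, SMPDL3A, C1QL1, HHLA2, CUBN, CLTRN and COL4A3 were lower in VHL in both pairs, and VHL, FN1, GPAT3, HLF, ATP2B4, BCAT1 and HIF1A were higher in both; FN1 went from 153 to 765 CPM in pair 1.

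Transcripts for the VHL ubiquitin ligase and its substrates were measured for 11 of 14 listed genes. Besides VHL, HIF1A rose. It encodes the oxygen-regulated HIF-1 alpha subunit, and its transcript went from 111.5 to 213 CPM in pair 1 and from 41.5 to 100 in pair 2 (log2 change 1.10 ± 0.22, adjusted p = 0.000103). Its levels overlapped between the groups across replicate numbers and were higher with VHL within each. EPAS1, which encodes HIF-2 alpha, did not pass the test, with 10.5 and 8.4 CPM in VEC and 11.3 and 13.4 in VHL (log2 change 0.40 ± 0.29, adjusted p = 0.679). ELOB, elongin B, fell by 0.83 ± 0.22 (adjusted p = 0.0124), and OS9, a lectin of endoplasmic reticulum quality control, by 0.73 ± 0.21 (adjusted p = 0.0289). CUL2, RBX1, ELOC and ARNT did not pass, with log2 changes between −0.27 and 0.25. The call of ELOB ended when the trend of the change with gene span (described below) was removed.

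Listed genes of the proximal tubule and its brush border were mostly lower in VHL cells. Clear cell carcinoma is thought to arise from this epithelium, whose apical microvilli carry the endocytic receptors cubilin and megalin. A list of such proteins was written after the values had been seen, so its counts describe and do not test. Of its 27 measured members, 14 fell and 1 rose (55.6% called, against 4.06% of all examined genes), and the median log2 change was −0.70 in pair 1 and −0.67 in pair 2, against −0.04 and 0.07 over all examined genes. CUBN, cubilin, stood at 359 and 153 CPM in VEC replicates 1 and 2 and at 70.4 and 52.6 in VHL (log2 change −1.94 ± 0.24, adjusted p = 1.99e-13). CLTRN, collectrin, which traffics amino acid transporters to the apical membrane, stood at 247 and 108 CPM in VEC and at 49.3 and 35.7 in VHL (−1.96 ± 0.23, adjusted p = 8.87e-15). For both genes the VHL libraries lay below both VEC libraries. The microvillus proteins VIL1 (villin), CDHR2 (a protocadherin of the intermicrovillar link) and USH1C (harmonin, its scaffold) fell by 1.43 ± 0.36, 1.38 ± 0.25 and 1.03 ± 0.22. FXYD2, the gamma subunit of the sodium pump, fell by 1.37 ± 0.26, the serine protease HPN by 1.33 ± 0.27, the ectonucleotidase ENPP3 by 1.40 ± 0.39, and the peptidase MME (neprilysin) by 0.82 ± 0.22. CLDN10, a claudin of tight junctions, fell by 1.61 ± 0.28 (adjusted p = 3.67e-06), whereas CLDN2, the cation-channel claudin of the proximal tubule, rose from 150.5 to 248 CPM in pair 1 and from 58.7 to 97.6 in pair 2 (0.73 ± 0.23, adjusted p = 0.0416). ACSM2A and ACSM2B, acyl-CoA synthetases of kidney and liver mitochondria, also fell, but they are near-identical copies and their counts could be shared.

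The most abundant receptor of the list, LRP2 (megalin), had 2617 and 1051 CPM in VEC and 1514 and 645.8 in VHL. Its log2 change of −0.75 ± 0.30 did not pass (adjusted p = 0.201). Neither did DPP4 (−0.62 ± 0.21) or PDZK1, a scaffold of apical transporters (−0.50 ± 0.22), both of them lower in both pairs. EZR, EPS8 and DAB2, which serve many cell types, also missed the threshold, as did GGT1 (−0.10 ± 0.23), a brush border peptidase, ANKS4B (−0.15 ± 0.23), a scaffold of the intermicrovillar link, and DDC (0.06 ± 0.22), a decarboxylase of the proximal tubule. PLS1, plastin 1 of the microvillus core, was higher in both pairs, by 0.28 and 0.94. The calls were spread over receptors, enzymes, junction and microvillus proteins. Not all of these belong to the apical surface, the mitochondrial ACSM2A and ACSM2B among them. By span, 1 of the 27 genes was among the 1998 shortest. The summed renal markers given above, which include CUBN, MME and LRP2, were also lower in the VHL library of each pair. In bulk RNA, fewer cells of a kind and less RNA per cell cannot be told apart.

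**Figure D3:**
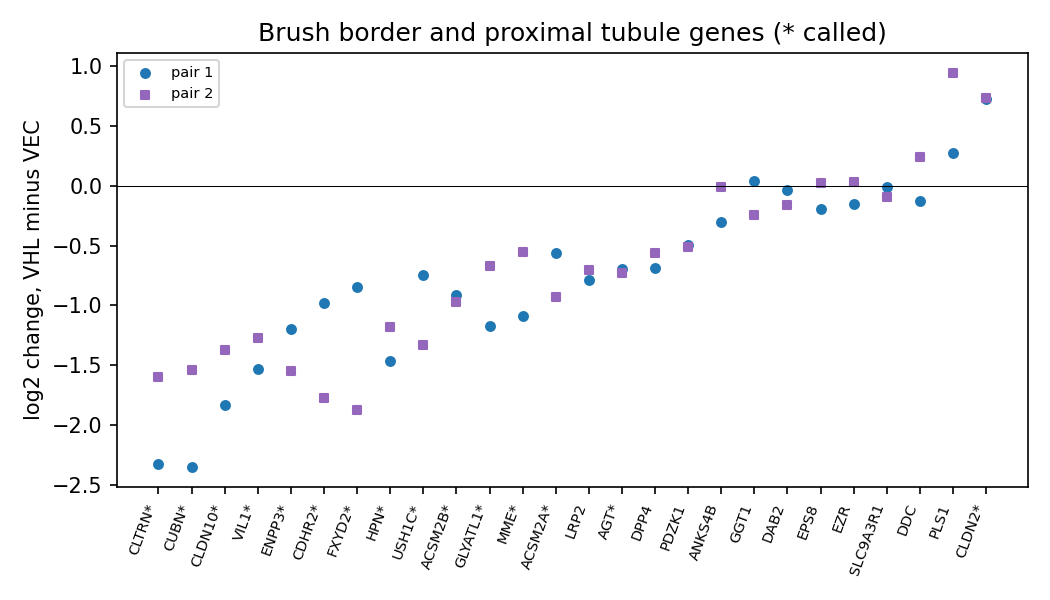
Log2 change (VHL minus VEC) in pair 1 (circles) and pair 2 (squares) of 26 of the 27 brush border and proximal tubule genes, ordered by the change fitted over both pairs; an asterisk marks a call at an adjusted p under 0.05. Of these, 14 were called lower and CLDN2 higher, and the largest changes were those of CLTRN and CUBN.

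Of 18 measured kidney transcription factors, 9 were higher and 4 lower in both pairs (32.8% and 30.8% among all examined genes). The 1 called was ELF3, an epithelial ETS factor, which fell from 59.9 to 36.9 CPM and from 16.6 to 7.42 (log2 change −0.93 ± 0.23, adjusted p = 0.00369). Among cadherins and cell junction proteins, 3 of 26 changed (11.5%, against 4.06% of all examined genes). These were the claudins CLDN10 (lower), CLDN2 and CLDN1 (higher, 1.03 ± 0.29, adjusted p = 0.0183).

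The type IV collagen chains COL4A3 and COL4A4 fell, COL4A1 and COL4A2 were not called, and fibronectin rose. Type IV collagen chains form the sheet under epithelia, and the alpha-3 and alpha-4 chains are those of the glomerular and tubular basement membrane. COL4A3 stood at 21.7 and 12.2 CPM in VEC replicates 1 and 2 and at 6.59 and 3.7 in VHL (log2 change −1.72 ± 0.30, adjusted p = 1.54e-06). COL4A4 stood at 32.2 and 18.7 CPM in VEC and at 10.8 and 7.32 in VHL (−1.46 ± 0.26, adjusted p = 5.08e-06). COL12A1, a fibril-associated collagen, fell by 1.08 ± 0.23 (adjusted p = 0.000309). These were 3 of 9 measured collagens (33.3% called, against 4.06% of all examined genes), and in each the VHL libraries lay below both VEC libraries. The widespread type IV chains COL4A1 and COL4A2 had log2 changes of 0.25 ± 0.215 and −0.15 ± 0.21 (adjusted p = 0.775 and 0.927), and COL18A1, another basement membrane collagen, −0.03 ± 0.22.

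COL4A3 and COL4A4 are printed because they are head-to-head neighbours that fell together. On GRCh38.p14 418 bases separate their RefSeq starts on chromosome 2, and their 250-base upstream windows share 82 bases, given in capitals. COL4A3 lies on the plus strand at chr2:227164374-227164623 and COL4A4 on the minus strand at chr2:227164206-227164455, each written 5′ to 3′ on its own strand, so the capitals of one are the reverse complement of the other's.
COL4A3: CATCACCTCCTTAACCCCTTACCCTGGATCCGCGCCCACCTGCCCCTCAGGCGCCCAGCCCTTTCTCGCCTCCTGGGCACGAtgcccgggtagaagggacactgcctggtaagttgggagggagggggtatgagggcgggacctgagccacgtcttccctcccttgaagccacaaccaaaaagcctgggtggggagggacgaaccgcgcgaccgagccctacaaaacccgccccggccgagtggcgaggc
COL4A4: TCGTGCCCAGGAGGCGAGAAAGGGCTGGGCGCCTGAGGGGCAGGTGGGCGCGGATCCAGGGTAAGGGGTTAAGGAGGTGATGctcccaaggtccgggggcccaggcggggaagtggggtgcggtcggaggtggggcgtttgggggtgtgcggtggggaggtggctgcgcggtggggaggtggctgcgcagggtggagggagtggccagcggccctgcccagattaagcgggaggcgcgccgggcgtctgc

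Other matrix genes were mixed. Of 22 measured glycoproteins and proteoglycans, FN1 rose and TGFBI and THBS3 fell. TGFBI, an integrin-binding matrix protein, stood at 250 and 95.9 CPM in VEC and at 109.5 and 33.15 in VHL (log2 change −1.36 ± 0.23, adjusted p = 4.4e-07). THBS3, a thrombospondin, fell by 1.35 ± 0.32, and the membrane metalloprotease MMP24 by 1.10 ± 0.33 (adjusted p = 0.0353), a call that ended with DESeq2's Wald test. Integrins and focal adhesion genes had 13 of 23 members higher in both pairs and 3 lower (32.8% and 30.8% among all examined genes). ITGB8 alone was called, and it was lower (−0.83 ± 0.23), by 1.23 in pair 1 and 0.43 in pair 2. CD44, the hyaluronan receptor, rose by 1.00 ± 0.24 (adjusted p = 0.00267). It was the 1 call among 7 measured mesenchymal genes, 5 of which were higher in both pairs.

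Glycan and heparan sulfate genes rose in 4 of 43 cases and fell in 1 (11.6% called, against 4.06% of all examined genes). GPC1 and SDC3, core proteins of heparan sulfate proteoglycans, rose by 1.07 ± 0.24 and 0.83 ± 0.26, and B4GALT1 and B4GALT6, galactosyltransferases, by 0.73 ± 0.22 and 0.85 ± 0.25, while FUT11 fell. The calls of SDC3, B4GALT1 and B4GALT6 ended with the span trend removed, that of SDC3 also with DESeq2's size factors, and those of GPC1 and B4GALT6 with DESeq2's Wald test.

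Genes of RAS and ERK signalling changed in both directions. A list of RAS proteins, regulators and effectors, also written after the values had been seen, held 35 measured genes, of which 2 rose and 4 fell (17.1% called, against 4.06% of all examined genes). Among the former, CBL, a ubiquitin ligase that ends receptor tyrosine kinase signalling, rose by 0.71 ± 0.22. Besides KSR1, RGL1 and RALGDS, which activate RAL downstream of RAS, fell by 1.30 ± 0.23 and 0.88 ± 0.27, and RASSF7, a RAS-association domain protein, by 1.11 ± 0.33. Among 16 immediate early and feedback genes of the ERK pathway, 12 were higher in both pairs and 1 lower (32.8% and 30.8% among all examined genes). DUSP5, a nuclear ERK phosphatase, was the 1 called, with 4.97 and 3.07 CPM in VEC and 14.5 and 7.2 in VHL (1.38 ± 0.32, adjusted p = 0.00154).

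Growth factor receptors and ligands had 3 falls and 1 rise among 23 genes (17.4% called, against 4.06% of all examined genes). ERBB3, the neuregulin receptor, stood at 378 and 173 CPM in VEC replicates 1 and 2 and at 141 and 81.7 in VHL (log2 change −1.25 ± 0.24, adjusted p = 1.99e-05). NRP1, a co-receptor of VEGF and semaphorins, fell by 1.29 ± 0.25 (adjusted p = 2.93e-05) and VEGFB by 0.76 ± 0.23, a call that ended with DESeq2's Wald test and with the span trend removed. FGF2 rose by 0.82 ± 0.22 (adjusted p = 0.00855). In the TGF-beta and BMP list GDF15, a stress-induced secreted factor, rose by 1.07 ± 0.31, and ID1 and SMAD9, read-out and mediator of BMP signals, fell by 0.82 ± 0.23 and 0.71 ± 0.21. SMAD9 changed by −1.08 in pair 1 and −0.36 in pair 2, and its call and that of GDF15 ended with DESeq2's Wald test, that of ID1 with the span trend removed. In the Notch list the receptor NOTCH3 rose by 0.76 ± 0.21 and the ligand JAG2 fell by 1.01 ± 0.31, a call that ended under both of these alternatives. Among 21 genes of the Wnt list edgeR called 0, with 2 at an unadjusted p under 0.05, and DESeq2's Wald test called 2 higher. Among 6 of the IGF-binding protein list the counts were 0, 0 and 0. AMOTL2, a target and inhibitor of YAP, fell by 1.34 ± 0.23 (adjusted p = 9.08e-07), the 1 call among 15 Hippo-YAP targets.

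G protein-coupled receptors and cyclic nucleotide genes had 17 of 36 members higher in both pairs and 4 lower (32.8% and 30.8% among all examined genes). The adhesion receptor ADGRG1 fell from 29.25 to 12.3 CPM in pair 1 and from 69.6 to 20.9 in pair 2 (log2 change −1.51 ± 0.23, adjusted p = 1.65e-08). Its relative ADGRG6 rose by 0.89 ± 0.28 (adjusted p = 0.0421) and RGS17, which switches off G proteins, by 0.74 ± 0.21. The call of ADGRG6 ended with DESeq2's size factors and with the span trend removed, and that of RGS17 with DESeq2's Wald test. Among ion channels and pumps, ATP2B4 and KCNJ2, an inward-rectifier potassium channel, were called of 34. The KCNJ2 call rested on pair 2, where it went from 120 to 283 CPM, whereas in pair 1 it stood at 3.2 and 3.43 CPM, and the call ended with DESeq2's Wald test.

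Immune ligands and receptors, a list of 19 measured genes written after the values had been seen, held 6 falls and 2 rises (42.1% called, against 4.06% of all examined genes). HHLA2, a B7-family ligand of T cell receptors, stood at 52.7 and 52.45 CPM in VEC and at 7.88 and 16.8 in VHL (log2 change −2.16 ± 0.23, adjusted p = 6.36e-17). CD70, the ligand of CD27 that many clear cell carcinomas display, stood at 16.5 and 7.455 CPM in VEC and at 5.15 and 2.375 in VHL (−1.67 ± 0.32, adjusted p = 3.55e-05). Their VHL libraries lay below both VEC libraries. The chemokine CXCL12 fell by 1.07 ± 0.22, the decoy receptor TNFRSF10D by 1.01 ± 0.22, TNFRSF14 by 0.90 ± 0.27, and TLR3, a sensor of double-stranded RNA, by 1.37 ± 0.23. TLR3 changed unevenly, by −2.30 in pair 1 and −0.54 in pair 2. CSF1, the macrophage growth factor, rose from 11.1 to 29.3 CPM in pair 1 and from 9.74 to 22 in pair 2 (1.29 ± 0.26, adjusted p = 7.53e-05), and the death receptor TNFRSF21 rose by 0.77 ± 0.22. Interferon-stimulated genes had 1 call among 23 (IFI44L), inflammatory cytokines and NF-kappaB targets 1 of 18 (CSF1), and antigen presentation 1 of 17 (TAP2, a peptide transporter, which rose by 0.97 ± 0.24). In the apoptosis list TNFRSF21 rose and TNFRSF10D fell among 29.

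The called genes of fatty acid synthesis all rose, while the 2 called in cholesterol synthesis went opposite ways. Of 28 measured genes of fatty acid synthesis and storage, 6 rose and 0 fell (21.4% called, against 4.06% of all examined genes), and 12 were higher and 4 lower in both pairs. The acyl-CoA synthetases ACSL4 and ACSL1 rose by 0.84 ± 0.23 and 0.80 ± 0.22, the elongases ELOVL5 and ELOVL6 by 0.91 ± 0.24 and 0.76 ± 0.23, fatty acid synthase (FASN) by 0.74 ± 0.21, and the phosphatidate phosphatase LPIN1 by 0.68 ± 0.21. ELOVL5 had the smallest adjusted p of the 6 (0.0072), with 140 and 154 CPM in VEC and 240.3 and 318.5 in VHL. FASN went from 27.2 to 53.6 CPM in pair 1 and from 55.5 to 79.2 in pair 2, and ACSL1 from 123 to 157 and from 53 to 126. GPAT3, described above, and ME1, malic enzyme, a source of NADPH (0.74 ± 0.23, adjusted p = 0.0459), rose as well. The calls of ACSL1 and ELOVL6 ended with DESeq2's Wald test, and that of ELOVL6 with the span trend removed. Cholesterol synthesis genes were higher in both pairs in 14 of 25 cases and lower in 7, and 2 were called. These were SQLE, squalene epoxidase, higher (0.76 ± 0.21), and EBP, a sterol isomerase, lower (−0.75 ± 0.22), whose call ended with the span trend removed. Of 40 fatty acid oxidation and peroxisomal genes, 18 were lower and 6 higher in both pairs. EdgeR called 0 of them, with 8 at an unadjusted p under 0.05, and DESeq2's Wald test called 6 lower and 1 higher.

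Glycogen and branched-chain amino acid enzymes were described from lists written after the values had been seen. Of 22 glycogen genes, 4 fell and 0 rose (18.2% called, against 4.06% of all examined genes). Of the falls, 3 lay outside the hypoxia targets set aside, which include PGM1. The 4 were GYS1, the muscle-type glycogen synthase (log2 change −1.02 ± 0.22, adjusted p = 0.000297), PGM1, which interconverts glucose phosphates (−0.91 ± 0.24), PHKA2, a regulatory subunit of phosphorylase kinase (−1.53 ± 0.22), and PPP1R3C, which targets a phosphatase to glycogen (−0.88 ± 0.21). PHKA2 stood at 71.2 and 61.15 CPM in VEC and at 24 and 21.6 in VHL, with no overlap. The list thus holds synthesis and breakdown genes on the same side. Several enzymes of this pathway are also known to respond to hypoxia. In branched-chain amino acid breakdown, BCAT1, the cytosolic transaminase, rose from 59.5 to 124 CPM in pair 1 and from 35.15 to 98.8 in pair 2 (1.28 ± 0.22, adjusted p = 1.19e-06). BCKDHA, a subunit of the next, committed enzyme, fell from 25.1 to 7.34 CPM and from 6.27 to 1.81 (−1.78 ± 0.31, adjusted p = 1.75e-06). The other 20 of the 22 genes were not called.

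In the list of ATF4 targets and amino acid synthesis genes, 1 of 35 rose and 2 fell (8.57% called, against 4.06% of all examined genes). The falls were SHMT2 and VLDLR, the latter one of the hypoxia targets set aside and not an enzyme of amino acid synthesis. PSAT1, a transaminase of serine synthesis, rose by 0.74 ± 0.22, while SHMT2, the mitochondrial enzyme that takes one-carbon units from serine, stood at 320 and 92.6 CPM in VEC replicates 1 and 2 and at 123 and 30.7 in VHL (log2 change −1.49 ± 0.23, adjusted p = 3.06e-08). SHMT2 has neighbours that fell too, NXPH4 (−1.80 ± 0.29) and LRP1 (−1.51 ± 0.30), a chain of adjacent genes on chromosome 12. Among purine, pyrimidine and polyamine genes, ASL, an enzyme of arginine synthesis, fell by 0.86 ± 0.24, and SMOX, spermine oxidase, rose by 1.03 ± 0.29, a call that ended under DESeq2's Wald test and with the span trend removed. DPYSL3, also in that list, is a cytoskeletal protein despite its family name. PDK3, which inhibits pyruvate dehydrogenase, fell by 1.14 ± 0.22 (adjusted p = 4.51e-05). CYP27A1, a sterol hydroxylase, fell by 1.20 ± 0.29, and CYP4F3 and CYP4F11, fatty acid hydroxylases of a family whose members share sequence, rose by 0.96 ± 0.22 and 0.79 ± 0.23. The call of CYP4F3 ended with DESeq2's Wald test. The antioxidant SRXN1 rose by 0.78 ± 0.23 and the glutathione transferase MGST3 fell by 0.91 ± 0.21, 2 calls among 33 genes of that list.

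The alpha-arrestins are adaptor proteins, and some of them, such as TXNIP, remove nutrient transporters from the cell surface and respond to glucose. All 5 measured members were lower in both pairs, and TXNIP and ARRDC3 passed the test, in a list written after the values had been seen. TXNIP stood at 150 and 56.4 CPM in VEC replicates 1 and 2 and at 54.25 and 28.7 in VHL (log2 change −1.22 ± 0.22, adjusted p = 4.34e-06), and ARRDC3 at 359 and 164 CPM in VEC and at 123.5 and 80.9 in VHL (−1.28 ± 0.24, adjusted p = 1.03e-05).

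Respiratory chain and cytosolic ribosomal protein genes had medians slightly below those of all examined genes. Of 37 complex I genes, 28 were lower and 1 higher in both pairs, and 5 fell (13.5% called, against 4.06% of all examined genes), with median log2 changes of −0.41 and −0.32 in pairs 1 and 2. The called genes included NDUFB11 (−0.97 ± 0.23), NDUFA1 (−0.94 ± 0.22), NDUFA13 (−0.85 ± 0.22) and NDUFB8 (−0.80 ± 0.23). Of 38 genes of complexes II to V, 27 were lower and 3 higher in both pairs, and 5 fell (13.2%), among them ATP5MF (−0.99 ± 0.22) and COX5B (−0.79 ± 0.22). Of 74 cytosolic ribosomal proteins, 55 were lower in both pairs and 0 higher, with 3 called (4.05%, as among all examined genes), among them RPL10 and RPL41, which have processed copies in the genome that could take part of the reads. More were called lower under other settings. DESeq2's Wald test called 12 genes of complex I, 12 of complexes II to V and 30 cytosolic ribosomal proteins, a fit of the examined genes alone 14, 12 and 22, and DESeq2's size factors 9, 8 and 16. Of 47 mitochondrial ribosome genes, with a median of −0.08 in the fit, edgeR called 0, with 3 at an unadjusted p under 0.05, and DESeq2's Wald test called 1 lower.

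Gene length moved with these results. The 9989 genes were divided into 5 groups of equal size by their span in RefSeq. The median log2 change was −0.17 in both pairs in the group of the shortest genes (405 to 12197 bases), and 0.02 and 0.18 in pairs 1 and 2 in the group of the longest. Lower calls made up 5.11% of the shortest group and 2.6% of the longest, while 15 higher calls were in the shortest and 44 in the longest. The shortest group held 66 of the 74 ribosomal protein genes, 19 of 37 complex I genes and 24 of 38 of complexes II to V. With the trend removed, an alternative added after the values had been seen, the median of the ribosomal proteins went from −0.35 to −0.16, that of complex I from −0.37 to −0.23 and that of complexes II to V from −0.39 to −0.25. The genes called lower in these lists then numbered 1, 3 and 1, and RPL10, RPL41, NDUFB11, NDUFB8 and COX5B were among those no longer called. The fit with the trend removed covered the other lists too, and several calls that ended there are given with their genes. The glycan and heparan sulfate list then held 1 rise in place of 4, and the brush border list 16 falls in place of 14. The median span of the brush border list was 50926 bases, against 35506 over all examined genes. Whether gene length had a part in the changes of any list was not tested. The plot by span shows the trend in each pair.

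**Figure D4:**
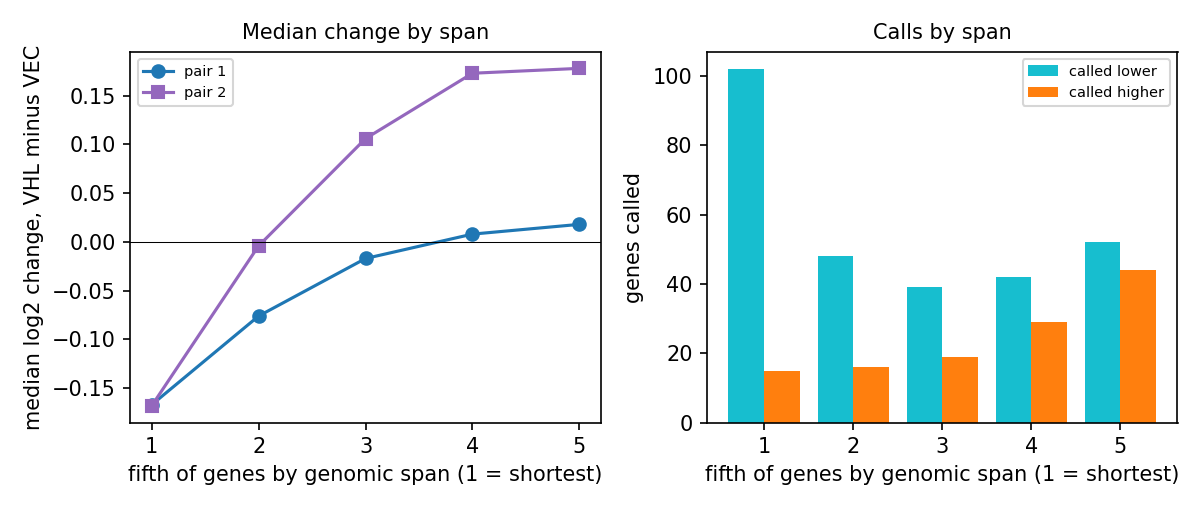
Left, median log2 change (VHL minus VEC) in pair 1 and pair 2 for 5 equal groups of the 9989 genes ordered by genomic span; right, number of genes called lower and higher in each group. Medians rose from −0.17 in both pairs in the shortest group to 0.02 and 0.18 in the longest, and lower calls went from 102 to 52.

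Mitosis and DNA replication genes held no edgeR call. Of 50 mitosis genes, 26 were higher and 1 lower in both pairs, where 32.8% and 30.8% of all examined genes were, with medians of 0.13 and 0.34 in pairs 1 and 2. EdgeR called 0 of the 50, with 5 at an unadjusted p under 0.05, while DESeq2's Wald test called 10 higher and 0 lower. Of 47 DNA replication genes, 18 were higher and 17 lower in both pairs, edgeR called 0, with 4 at an unadjusted p under 0.05, and DESeq2's Wald test called 2 higher and 1 lower. Of 62 chromatin and DNA methylation enzymes, 32 were higher and 12 lower in both pairs, edgeR called 0, with 5 at an unadjusted p under 0.05, and DESeq2's Wald test called 6 higher and 2 lower. Cell-cycle inhibitors and p53 targets had 3 calls among 20 (15%, against 4.06% of all examined genes). BTG2 and CCNG2, both growth-restraining genes, fell by 1.10 ± 0.26 and 0.89 ± 0.26, and PMAIP1, the BH3-only protein NOXA, rose by 0.99 ± 0.27. The calls of CCNG2 and PMAIP1 ended with the span trend removed and with DESeq2's Wald test respectively. Chaperones were higher in both pairs in 19 of 27 cases, yet the 1 edgeR call was a fall, that of CRYAB, alpha-B crystallin. It went from 267 to 167 CPM in pair 1 and from 459 to 199 in pair 2 (log2 change −0.94 ± 0.24, adjusted p = 0.00715). Among the chaperones, DESeq2's Wald test called 3 higher and 1 lower. EdgeR called 0 of 33 proteasome genes and 0 of 27 genes of the unfolded protein response, with 4 and 3 at an unadjusted p under 0.05. DESeq2's Wald test called 3 higher and 3 lower in the proteasome list and 3 lower in the other. Of 11 metallothionein and metal handling genes both tools called 0, with 1 at an unadjusted p under 0.05 in edgeR.

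Cytoskeletal and membrane scaffold genes changed singly. The annexins, calcium-dependent membrane binders, were divided, with ANXA3 lower (−1.47 ± 0.23, adjusted p = 1.11e-07), ANXA4 lower (−0.93 ± 0.26) and ANXA6 higher (1.18 ± 0.22, adjusted p = 1.04e-05). ANXA6 went from 81.2 to 160 CPM in pair 1 and from 21.1 to 55.4 in pair 2. TPM1, a tropomyosin, and MYL6, a myosin light chain, fell by 0.70 ± 0.21 and 0.83 ± 0.25, and the keratin KRT10 rose by 0.85 ± 0.25. Genes known from neurons were mixed, with the microtubule proteins MAP2 higher (0.80 ± 0.22) and MAPT, tau, lower (−0.83 ± 0.25), the adhesion protein CADM1 higher (0.71 ± 0.22) and SYTL2, an effector of RAB27, lower (−1.33 ± 0.25). The ephrin EFNA5 rose by 0.85 ± 0.25. It stood at 24.3 and 33.1 CPM in replicate 1 and at 315 and 738 in replicate 2, 1 of 5 called genes at least 8-fold higher in replicate 2 than in replicate 1. GABARAPL1, an autophagosome protein, fell by 0.91 ± 0.23, the 1 call among 38 lysosome and autophagy genes. The calls of MYL6 and MAPT ended with the span trend removed and with DESeq2's Wald test respectively. The plot of medians sets the larger lists beside all examined genes.

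**Figure D5:**
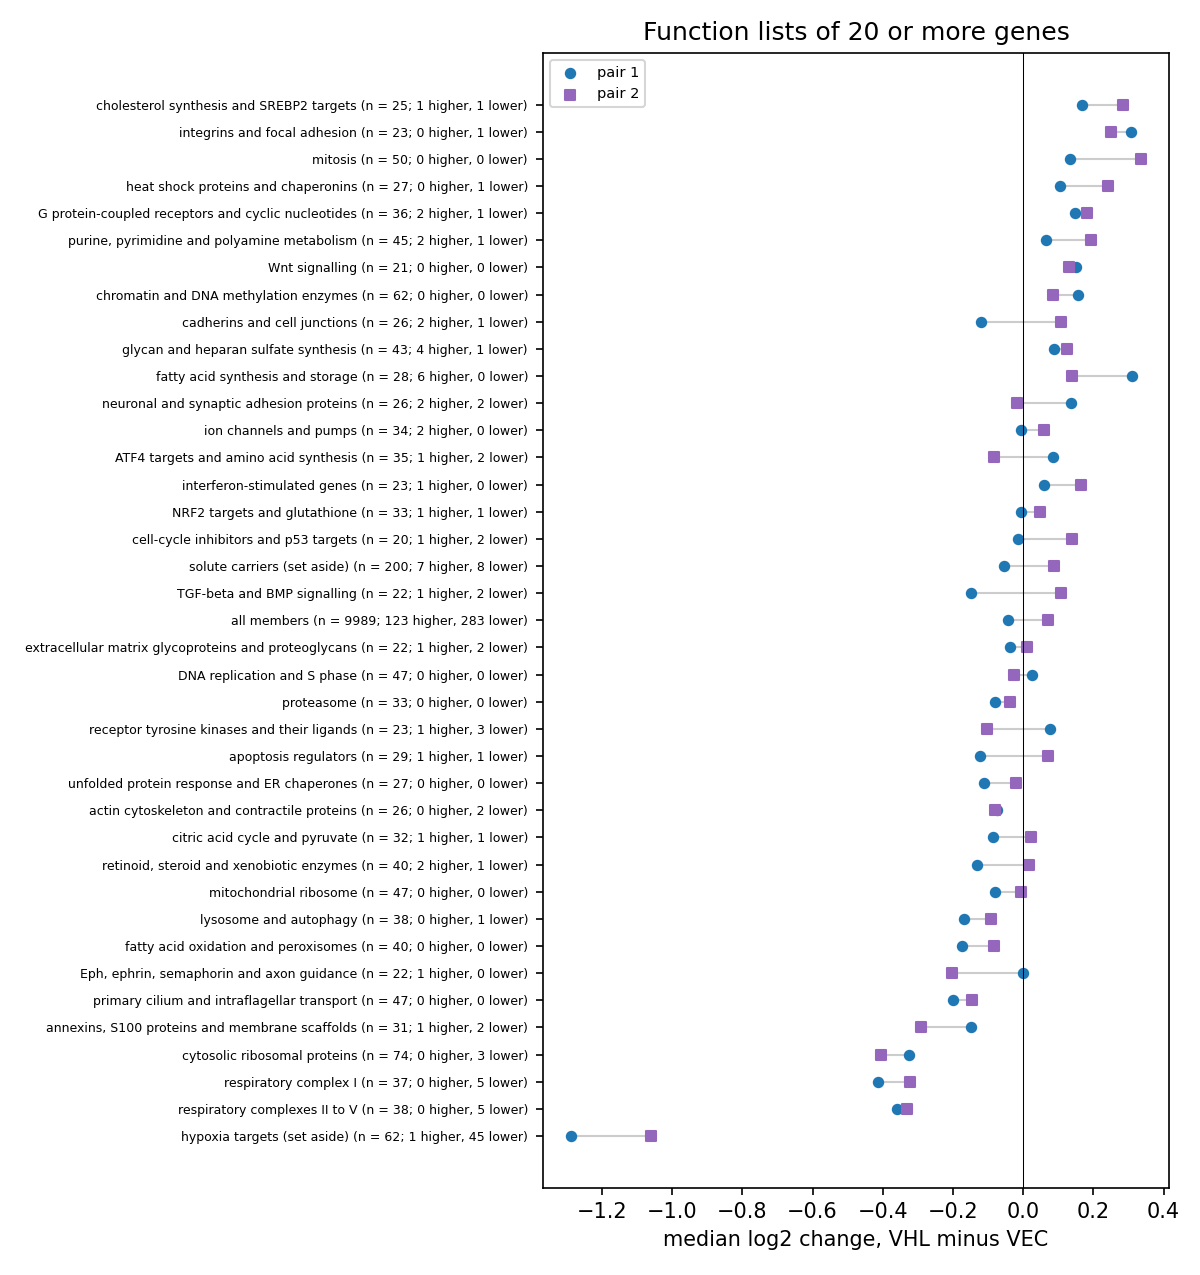
Median log2 change (VHL minus VEC) in pair 1 (circles) and pair 2 (squares) for the lists of 20 or more measured genes, apart from the 6 written after the values had been seen, with the number measured and the numbers called higher and lower beside each name. The hypoxia targets stand at −1.29 and −1.06, the respiratory and cytosolic ribosomal lists at −0.32 to −0.41, and most other lists within 0.3 of 0, like all examined genes at −0.04 and 0.07.

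Levels in the VEC and VHL libraries did not overlap over all 4 libraries in 234 of the 406 called genes (57.6%), and in 1276 of all 9989 (12.8%), where 4.06% were called. Calls and overlap come from the same values, so the first share is no separate support for the calls. In 7 called genes the change in one pair was under 0.3, so that the other pair carried the call. These were FKBP5, KCNJ2, NABP1, PAG1, SDF4, SEC14L6 and SLC4A7. Genes just inside the limit of 50 counts, with the lowest library at 50 to 59, numbered 226, and 262 protein-coding symbols had their lowest library at 40 to 49. The limit left out 376 protein-coding symbols with 50 or more counts in both VEC libraries but fewer in a VHL library, and 133 with the reverse. Of 3919 tested protein-coding symbols below the limit, 101 (2.58%) were called, 67 lower (1.71%) and 34 higher (0.868%). Of the 135 genes checked for named functions, 25 overlap another protein-coding gene in RefSeq, among them DNAH11, CLDN10, FN1, COL4A4 and SHMT2. Whether strand was used in counting is not given in the sources used here, so reads of overlapping genes cannot be told apart.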

How the data were processed

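RNA was measured in 4 UM-RC-2 libraries. The deposited values are the authors' raw read counts per gene symbol on hg19, per the file headers and the submitters' processing notes, which list featureCounts and HOMER without role or version. The aligner, annotation, strand setting and handling of multi-mapping reads are not given in the sources used here. Groups and replicate numbers came from the titles.

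Counts of all symbols were fitted in R 4.3.3 with edgeR 4.0.16 (filterByExpr, TMM, glmQLFit and glmQLFTest, two-sided, group plus replicate number). Benjamini-Hochberg adjustment ran over 24417 genes, and an adjusted p under 0.05 was a call. The SE was derived from the log2 change and its F statistic. Changes within a pair were taken between log2 CPM values, with 2 as prior count. Same-numbered libraries deviated together from their group means (r = 0.945), and the labels give them the same RNA type. DESeq2 1.42.0 and other settings were alternatives. Biotypes, spans and promoters came from RefSeq GRCh38.p14, which matched 42740 of 43682 symbols.

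The members and lists were chosen with earlier results of these data known, and 6 lists were written after the values were seen. Named genes are VHL, the 15 largest changes in each direction among calls with one sign in both pairs outside the set-aside groups, and up to 4 per list and direction. Others named in lists written later, and in the closing observations, were chosen after their values were seen. ChIP tables were not used. A few single genes that were counted in their lists are not reported here by name.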

Additional observations from a re-analysis of the deposited data

How the results depend on the processing

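Replicate number pairs the libraries through a shared RNA type in the labels, but only 2 pairs and 1 residual degree of freedom support each call. Without the replicate block 0 genes were called (0 higher, 0 lower, 0 with the same sign), and 109 of 109 named genes lost their call. Leaving out 1 library gave no value with the block, since no residual degree of freedom was left, and gave 0 calls without it in every case, with 0 to 9 genes at an unadjusted p under 0.05. With 1 library left in a group, its spread is assumed to be that of the other. Fitting protein-coding symbols alone gave 803 calls (278 higher, 525 lower, 800 with one sign), the examined genes alone 1034 (355, 679 and 1030), and DESeq2's Wald test 1074 (463, 611 and 1074). Of the 406, 406, 406 and 329 were shared. Without the filter on low counts 330 were called, 75 of them higher. DESeq2's size factors gave 545, and removing the span trend 392 (314 shared). None of the shared calls changed direction. The rule of 1 log2 unit in both pairs gave 123 genes, 193 with a mean of 50 counts as the limit, and 356 and 267 where 1 pair alone was required (without replicate 1 and without replicate 2). Calls of named genes were lost for 17 with the Wald test (2 more had no adjusted p there), 21 with the span trend removed and 2 with DESeq2's size factors. No named gene reversed. Library depth of 16230291 to 50027348 counts limits genes near 50 counts.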

Other observations

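Of the 406 calls, 220 belonged to genes in none of the function lists, later ones included, and not set aside (69 higher, 151 lower, 2.69% of 8193 such genes). The following were chosen after their values were seen, and no list of their kind was counted. ABCG2, an exporter of urate and drugs, rose (log2 change 1.27 ± 0.36), and ABCC6 and the phospholipid exporter ABCB4 fell by 1.01 ± 0.22 and 1.02 ± 0.32. GPD1, a glycerol-3-phosphate dehydrogenase, fell by 1.11 ± 0.24 and its relative GPD1L rose by 0.86 ± 0.24. COQ8A and COQ9, which serve ubiquinone synthesis, fell by 1.03 ± 0.29 and 0.74 ± 0.21. FECH, ferrochelatase, rose by 0.83 ± 0.21 and BLVRB, a biliverdin reductase, fell by 0.85 ± 0.26.

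Genes adjacent in RefSeq order gave 5985 pairs of examined genes, and in 19 of them both were called. The direction was shared in 17, including LRP1, NXPH4 and SHMT2, TM4SF18 and TM4SF1, and APOL2 and APOL1. It was opposite in 2, RNF24 with SMOX and TNIP1 with ANXA6.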
